A study of Bos taurus with 12 samples.

Results

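Lactose is made in the Golgi of mammary secretory cells from glucose taken up from blood. Glucose enters the cell through facilitative carriers (the SLC2A genes), is phosphorylated by hexokinases, and is turned by phosphoglucomutase and UDP-glucose pyrophosphorylase into UDP-glucose, the precursor of UDP-galactose. UDP-galactose is carried into the Golgi, where the galactosyltransferase B4GALT1, with α-lactalbumin (LALBA) as its partner protein, joins galactose to glucose. Lactose draws water into milk, so its synthesis sets much of the milk volume in dairy cows.

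The genes of this route examined here were SLC2A1, SLC2A3 and SLC2A8 (glucose carriers), HK1 and HK2 (hexokinases), PGM1 (phosphoglucomutase), UGP2 (UDP-glucose pyrophosphorylase), SLC35A2 (the Golgi carrier of UDP-galactose) and B4GALT1. Their probes were the non-control array probes whose RefSeq transcript identifier maps to the symbol of 1 of these 9 genes. They numbered 23 of 43653 probes and covered 8 of the 12787 genes with a symbol, since no probe mapped to HK2. Of the 23 probes, 17 were tested, which left 7 genes with a test.

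Mammary gland biopsies of Holstein cows were profiled on 12 one-colour Agilent bovine arrays, 6 in each of 2 groups. CONT biopsies (day 0) came from cows eating a lactation diet without limit, and REST biopsies (day 6) came from the same 6 cows once feed had been cut to 50% of their requirement for net energy for lactation (NEL). All were multiparous and in midlactation, and biopsies were taken from the sides of the rear udder in alternation. No arrays of cows kept on full feed over the same days were part of the comparison, so that restriction and the passage of 6 days cannot be told apart. The labels name 6 cows, numbered 1 to 6 here, whereas the series text counts 5, and the methods state that 1 Holstein cow was excluded for mastitis without saying which. Each cow was therefore also left out in turn.

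Cows 1 and 2 were on slide 1, cows 3 and 4 on slide 2 and cows 5 and 6 on slide 3, with both biopsies of a cow on the same slide. Arrays of slide 3 were dimmer: 41.9 to 48.0% of their spots passed the call for signal over background made in scanning, against 61.8 to 67.9% on slides 1 and 2. Levels below are log2 signals relative to the 75th percentile of the array, and a change is REST minus CONT within a cow. The 75th percentile itself was higher in the REST array of all 6 cows, by 0.17 to 0.45 on the log2 scale, and changes are relative to it. A probe was called when its adjusted p (limma, paired by cow, Benjamini-Hochberg over 19403 tested probes) was under 0.1. The lead probe of a gene was its tested probe with the highest mean signal. Levels of different probes are not compared, because each probe binds with its own strength.

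Among the 7 tested genes, SLC2A1 fell with its lead probe, and a less bright probe of UGP2 fell as well. In the paired limma fit 3 of the 17 tested probes were called, all lower in REST, while 16.0% of all tested probes were called (8.78% lower and 7.22% higher). Counting lead probes, 1 of 7 genes was called against 16.2% of the 7930 genes tested, and counting any probe, 2 of 7 against 20.5%. These shares lay near those of the whole array. Lead probes of 6 of the 7 genes had a lower mean in REST, with a median change of -0.08 against -0.01 over all tested genes. Without the pairing 1 of the 17 probes was called, beside 4.31% of all tested probes, and 1 of 7 lead probes, beside 4.40% of genes. On each of the 23 probes the CONT and REST values overlapped, whereas over all genes every REST value was below every CONT value for 1.66% of lead probes and above for 0.605%.

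**Figure D1:**
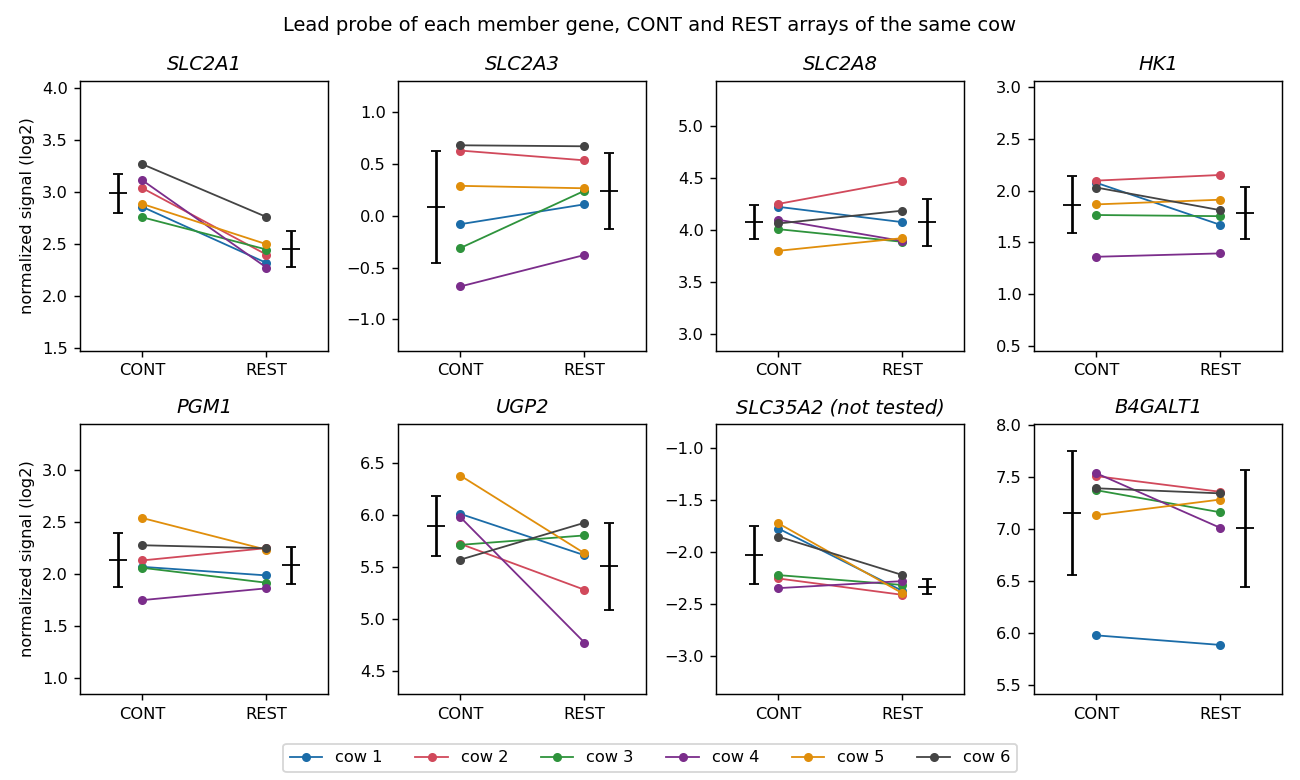
Normalized signal (log2, relative to the 75th percentile of the array) of the lead probe of each gene in CONT and REST, 1 line per cow. SLC35A2 is shown by its only probe, which was not tested. Bars at the sides are mean and SD over the 6 cows, and each panel spans the same log2 range around its own centre. All 6 lines fall for SLC2A1, and the line of cow 1 lies below the others for B4GALT1.

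SLC2A1 (NM_174602) encodes GLUT1, the main glucose carrier of the lactating mammary gland. Its lead probe read 2.76, 2.96 and 3.27 (lowest, median and highest) in CONT and 2.27, 2.42 and 2.76 in REST. The highest REST value, from cow 6, barely exceeded the lowest CONT value, from cow 3, and within every cow the REST biopsy was lower. By cow the changes were -0.54, -0.64, -0.31, -0.84, -0.39 and -0.51 for cows 1 to 6. The mean moved from 2.99 ± 0.19 to 2.45 ± 0.17 (SD, n = 6), a change of -0.54 (SE 0.090, limma adjusted p = 0.0153) to 68.9% of the CONT signal (95% interval 59.8 to 79.3%). A fall in all 6 cows was seen for the lead probes of 10.8% of tested genes. The summed signal of 5 secretory epithelium markers was also lower in 6 of 6 cows, as was that of FABP4, the only adipocyte marker tested. The part of these markers in the change of SLC2A1 was not tested.

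The fall of SLC2A1 was of similar size on all slides, at -0.59 on slide 1, -0.58 on slide 2 and -0.45 on the dimmer slide 3. It was called with the lead probe in all 19 alternative analyses. The adjusted p ran from 0.00257 to 0.0979 (limma, or an unpaired test without moderation) and was 0.0333 in the unpaired limma fit. Among these alternatives, the deposited series table holds the same values as the main input, so its result was fixed. Leaving out the cows in turn gave changes between -0.58 and -0.48. Its fall was smallest, at -0.39, with the background handled by normexp.

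The other probes of SLC2A1 were dimmer and gave smaller changes. Probe A_73_P033201 read -1.59, -1.02 and -0.98 in CONT and -1.85, -1.57 and -1.35 in REST. It was lower in 6 of 6 cows, with a change of -0.42 (SE 0.081, limma adjusted p = 0.0227), although the unpaired fit gave an adjusted p of 0.124. Probe A_73_P346251 read -1.86, -1.55 and -0.73 in CONT and -2.20, -1.62 and -1.51 in REST. Its change of -0.25 (SE 0.12, limma adjusted p = 0.218) was not called, and 5 of 6 cows were lower. The largest drop on that probe, -0.88 in cow 6, started from the CONT value of -0.73, which stood above the -1.86 to -1.53 of the other cows.

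SLC2A3 (NM_174603) encodes GLUT3, a carrier of high affinity best known from neurons. Its lead probe read -0.68, 0.10 and 0.68 in CONT and -0.38, 0.25 and 0.67 in REST. Cows were split 3 lower and 3 higher, and cow 3 moved most, by 0.55. The mean change was 0.15 (SE 0.10, 95% interval -0.08 to 0.38, limma adjusted p = 0.361), 0.07 without cow 3 and 0.24 without slide 3. A second probe gave -0.06 (SE 0.12, adjusted p = 0.778), and the 4 remaining probes were well above background on at most 1 array and were not tested.

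SLC2A8 (NM_201528) encodes GLUT8, a carrier held mostly on membranes inside the cell. Its lead probe read 3.8, 4.08 and 4.25 in CONT and 3.88, 3.997 and 4.47 in REST. The change was -0.0013 (SE 0.088, limma adjusted p = 0.994), with a 95% interval of -0.20 to 0.20, and the sign of so small a value turned with the scaling. Its other probe changed by 0.0042 (SE 0.084, adjusted p = 0.98). The cows were again split, 3 lower and 3 higher on the lead probe.

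HK1 (NM_001012668) encodes the hexokinase found in most tissues. It had 1 probe, which read 1.36, 1.95 and 2.10 in CONT and 1.39, 1.78 and 2.15 in REST. The change was -0.08 (SE 0.090, 95% interval -0.29 to 0.12, limma adjusted p = 0.577). The largest moves were -0.41 in cow 1 and -0.22 in cow 6, and the other cows stayed between -0.01 and 0.05. Without cow 1 the change was -0.02 and with normexp 0.02. HK2 was not analysed here.

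PGM1 (NM_001076903) encodes the enzyme that interconverts glucose 6-phosphate and glucose 1-phosphate. Its lead probe read 1.75, 2.10 and 2.54 in CONT and 1.86, 2.11 and 2.25 in REST, a change of -0.05 (SE 0.085, 95% interval -0.25 to 0.14, limma adjusted p = 0.708). A second probe changed by -0.11 (SE 0.092, adjusted p = 0.482). Cow 5 had the largest drop on both, -0.31 and -0.48. The remaining probe was above background on 3 CONT and 4 REST arrays and was not tested. Without cow 5 the change of the lead probe was -0.0047, and its sign turned with normexp (0.06) and without slide 3 (0.0014).

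**Figure D2:**
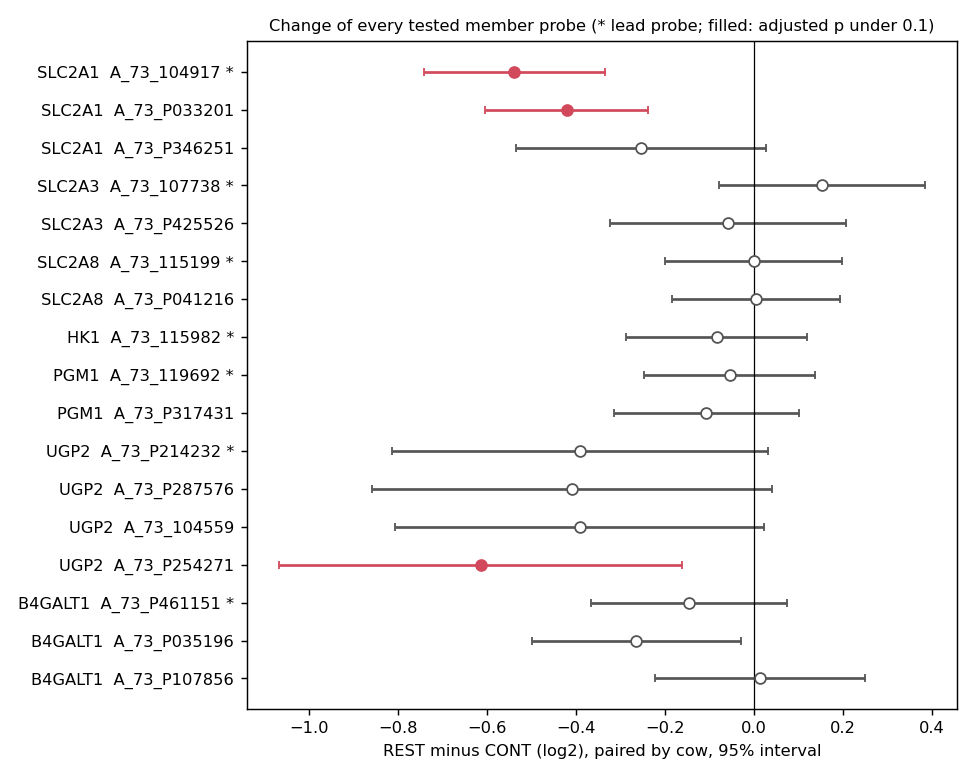
Change from CONT to REST (log2, paired limma estimate with its 95% interval, 6 cows) of the 17 tested probes, ordered by their place in the route. Filled points are probes with an adjusted p under 0.1 over all tested probes: the SLC2A1 lead probe (-0.54), A_73_P033201 (-0.42) and the UGP2 probe A_73_P254271 (-0.61).

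UGP2 (NM_174212) encodes the enzyme that makes UDP-glucose from glucose 1-phosphate and UTP. Its lead probe read 5.57, 5.85 and 6.38 in CONT and 4.77, 5.62 and 5.92 in REST, with a change of -0.39 (SE 0.19, 95% interval -0.81 to 0.03, limma adjusted p = 0.209) that was not called. Probes A_73_P287576 and A_73_104559 gave -0.41 and -0.39, with adjusted p of 0.217 and 0.202. The dimmest probe, A_73_P254271, read 0.05, 0.73 and 0.98 in CONT and -0.53, -0.08 and 0.66 in REST. It was called, with a change of -0.61 (SE 0.20, limma adjusted p = 0.0908) and 5 of 6 cows lower. That call held in 10 of 19 alternatives and was lost without the pairing (0.184) and when cow 1, 2, 3, 4 or 5 was left out (0.107 to 0.226).

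The cows differed widely in the change of UGP2. Cow 4 had the largest drop on each of the 4 probes, -1.31 to -1.20, and cow 5 dropped by -0.84 to -0.74. Cow 6 was higher in REST on all 4 probes, by 0.36 to 0.42. Cow 3 lay between -0.21 and 0.09, and cows 1 and 2 were lower on all 4 probes, most on A_73_P254271 (-0.94 and -0.89), where they fell more than cow 5. The probes share 1 transcript and are not replicates. Without cow 6 the lead probe was called (-0.54, limma adjusted p = 0.0982), and without cow 4 its change was -0.23 (adjusted p = 0.451).

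**Figure D3:**
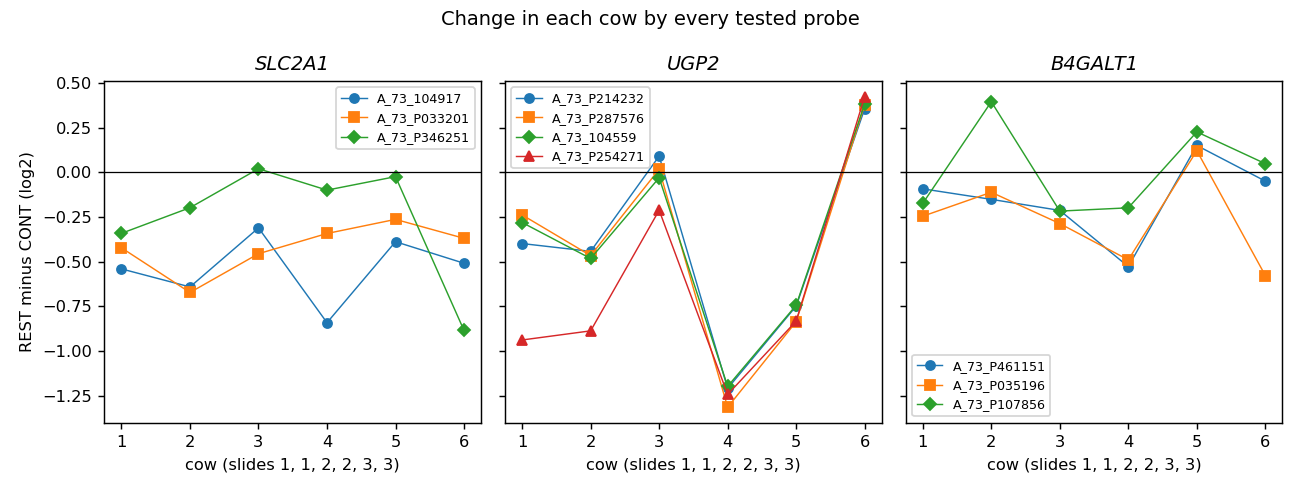
Change from CONT to REST (log2) in each of the 6 cows by every tested probe of SLC2A1, UGP2 and B4GALT1, with 1 marker and line per probe. Lines join probes across cows only to guide the eye. The 4 UGP2 probes lie together from -1.31 to -1.20 in cow 4 and from 0.36 to 0.42 in cow 6, and the SLC2A1 lead probe is below 0 in all 6 cows.

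SLC35A2 (NM_176640) carries UDP-galactose from the cytosol into the Golgi. Its only probe was well above background on 5 CONT and 4 REST arrays and therefore missed the filter. It read -2.35, -2.04 and -1.72 in CONT and -2.41, -2.35 and -2.22 in REST. Of the 6 cows 5 were lower, and 3 of the 6 REST values (cows 1, 2 and 5) lay below the lowest CONT value. With no filter on dim probes the change was -0.31 (SE 0.13, limma adjusted p = 0.238).

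B4GALT1 (NM_177512) encodes the catalytic subunit of lactose synthase. Its lead probe read 5.97, 7.38 and 7.54 in CONT and 5.88, 7.22 and 7.36 in REST, and its change was -0.15 (SE 0.097, 95% interval -0.37 to 0.07, limma adjusted p = 0.356). Of the 6 cows 5 were lower, from -0.53 in cow 4 to -0.05 in cow 6, and cow 5 was higher by 0.15. Probe A_73_P035196 changed by -0.26 (SE 0.10, 95% interval -0.50 to -0.03, adjusted p = 0.141) with the same 5 cows lower. The remaining probe, A_73_P107856, changed by 0.01 (SE 0.10, adjusted p = 0.949), with 3 cows lower. None of the 3 probes was called.

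Cow 1 stood apart for B4GALT1, with the lowest value on all 3 probes in both CONT and REST. On the lead probe it read 5.97 in CONT against 7.13 to 7.54 in the other 5 cows, and 5.88 in REST against 7.01 to 7.36. On A_73_P035196 the readings were 5.38 against 6.95 to 7.15 and 5.13 against 6.57 to 7.07. On A_73_P107856 they were 2.95 against 4.46 to 4.79 and 2.78 against 4.55 to 4.85. The share of spots well above background on the arrays of cow 1 was 61.8% in CONT and 64.0% in REST. With the pairing the SE of the lead probe was 0.097, and without it 0.29. Leaving out cow 1 gave a change of -0.16 (limma adjusted p = 0.441). The change of the lead probe was -0.0052 with normexp, -0.25 without slide 3 and -0.07 without cow 4, and none of these was called.

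**Figure D4:**
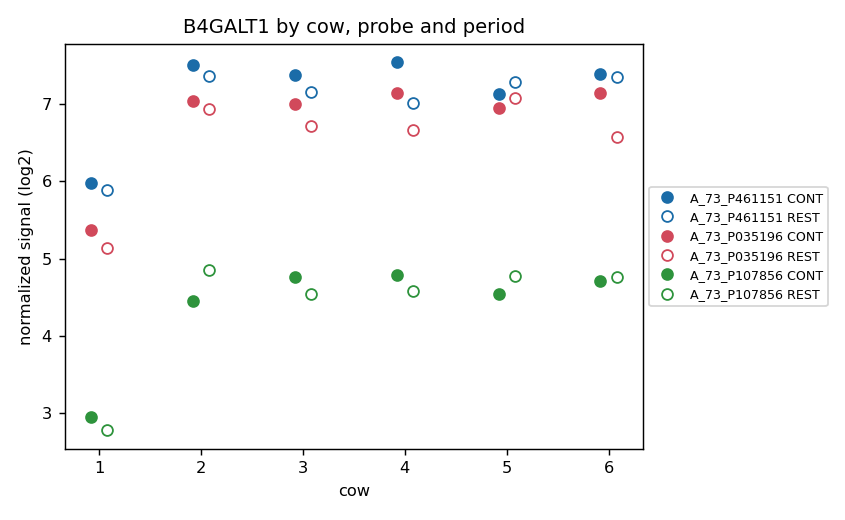
Normalized signal (log2) of the 3 B4GALT1 probes in each cow, with filled points for CONT and open points for REST. The difference of cow 1 from the mean of the other cows lies between -1.92 and -1.35 on every probe in both periods.

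The change of SLC2A1 was set beside that of each other tested gene of the group within cows, on lead probes, in 6 pairs. The pairs were all built on SLC2A1 with its fall known and share its values, so the differences are a description, with no test. The difference was -0.69 ± 0.28 (SD, n = 6) against SLC2A3, -0.54 ± 0.23 against SLC2A8, -0.48 ± 0.33 against PGM1, -0.45 ± 0.28 against HK1 and -0.39 ± 0.16 against B4GALT1, and in each of these 5 pairs it had this sign in 6 of 6 cows. Against UGP2 it was -0.15 ± 0.47, from -0.86 in 1 cow to 0.37 in another, with 4 of 6 cows lower. The differences depend on the probe. The SLC2A1 probe A_73_P346251 changed by -0.25 and the B4GALT1 probe A_73_P035196 by -0.26, and in cow 4 the latter changed by -0.49 against -0.34 for the SLC2A1 probe A_73_P033201.

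LALBA, the partner protein of B4GALT1 and a major whey protein, read 9.69, 9.99 and 10.37 in CONT and 9.53, 9.78 and 10.06 in REST. It was lower in 6 of 6 cows, with a change of -0.20 (SE 0.077, limma adjusted p = 0.139) that was not called. It was called in limma with a trended and robust variance (adjusted p = 0.0567), and its change was -0.07 with normexp and 0.02 after quantile normalization. Other genes around lactose synthase were tested on 5 lead probes, LALBA included, of which 3 had a lower and 2 a higher mean in REST, 1 was called lower and 1 called higher, and the median was -0.16. Over all genes, 9.27% of lead probes were called lower and 6.94% higher. TMEM165, a Golgi membrane protein needed for manganese supply to glycosyltransferases, fell from 2.36, 2.99 and 3.11 to 1.70, 1.93 and 2.85, by -0.72 (SE 0.20, limma adjusted p = 0.0620), in 5 of 6 cows. B4GALT4, another galactosyltransferase of the family, rose by 0.37 (SE 0.10, adjusted p = 0.0576), in 5 of 6 cows. The call of TMEM165 held in 13 of 19 alternatives and that of B4GALT4 in 9. With normexp the change of B4GALT4 was 0.09 (limma adjusted p = 0.445).

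Upstream, the other sugar carriers with a test were SLC2A4, SLC2A6, SLC2A13 and SLC5A9. All 4 had lower means in REST, with a median of -0.30. Under limma 0 of the 4 were called, 1 had an unadjusted p under 0.05, and 0 were called without the pairing.

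Of 9 other hexose phosphate genes tested (median -0.06), 1 was called lower and 1 higher, beside 9.27% and 6.94% of all genes. HKDC1, a hexokinase-like gene, rose by 0.52 (SE 0.16, limma adjusted p = 0.0800), in 6 of 6 cows. The rise was 0.43 to 1.15 in cows 1 to 4, and only 0.04 and 0.01 in cows 5 and 6 of the dimmer slide 3. The call of HKDC1 held in 10 of 19 alternatives and not without the pairing. With normexp its change was 0.13 (limma adjusted p = 0.292).

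The enzymes of galactose and UDP-sugars gave 2 lower and 1 higher call among 10 tested genes (median -0.12). The shares over all genes were 9.27% lower and 6.94% higher. NME2, a nucleoside diphosphate kinase that makes UTP, read 4.81, 5.25 and 5.61 in CONT and 4.05, 4.44 and 5.02 in REST. It fell by -0.70 (SE 0.12, limma adjusted p = 0.0150), in 6 of 6 cows, and was called in 18 of 19 alternatives. NME1 fell by -0.35 (SE 0.11, adjusted p = 0.0897), called in 7 of 19, and since the pair are close in sequence their probes may share signal. UGDH, which diverts UDP-glucose to UDP-glucuronate, rose by 0.39 (SE 0.11, adjusted p = 0.0630), in 6 of 6 cows and in 10 of 19 alternatives. With normexp UGDH changed by 0.13 (limma adjusted p = 0.270) and NME1 by -0.18 (0.358).

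Of the glycogen branch, which also starts from UDP-glucose, 1 of 6 tested genes was called (median 0.05), beside 16.2% of all genes. GYG1, the glycogenin that primes glycogen, fell by -0.46 (SE 0.098, limma adjusted p = 0.0316), in 6 of 6 cows and 15 of 19 alternatives, and by -0.29 with normexp. Among 8 other nucleotide sugar carriers tested (median -0.19), SLC35D2 fell by -0.55 (SE 0.15, adjusted p = 0.0549), in 6 of 6 cows and 14 of 19 alternatives.

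The regulators of glucose carriers and hexokinase gave 2 lower and 1 higher call among 7 tested genes (median -0.06). For all genes these shares were 9.27% and 6.94%. TXNIP, an arrestin-family protein known to lower glucose uptake, read 3.84, 4.96 and 5.79 in CONT and 5.20, 5.48 and 6.43 in REST. It rose by 0.82 (SE 0.26, limma adjusted p = 0.0872), in 5 of 6 cows. HIF1A, the hypoxia-inducible factor known to drive SLC2A1 transcription, fell by -0.54 (SE 0.11, adjusted p = 0.0294), in 6 of 6 cows. PEA15, a small phosphoprotein, fell by -0.28 (SE 0.081, adjusted p = 0.0658), in 6 of 6 cows. The calls held in 11, 16 and 11 of 19 alternatives, and in the unpaired limma fit none of the 3 was called. PEA15 was called in an unpaired test without moderation (adjusted p = 0.0688), and with normexp its change was -0.14 (limma adjusted p = 0.274).

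**Figure D5:**
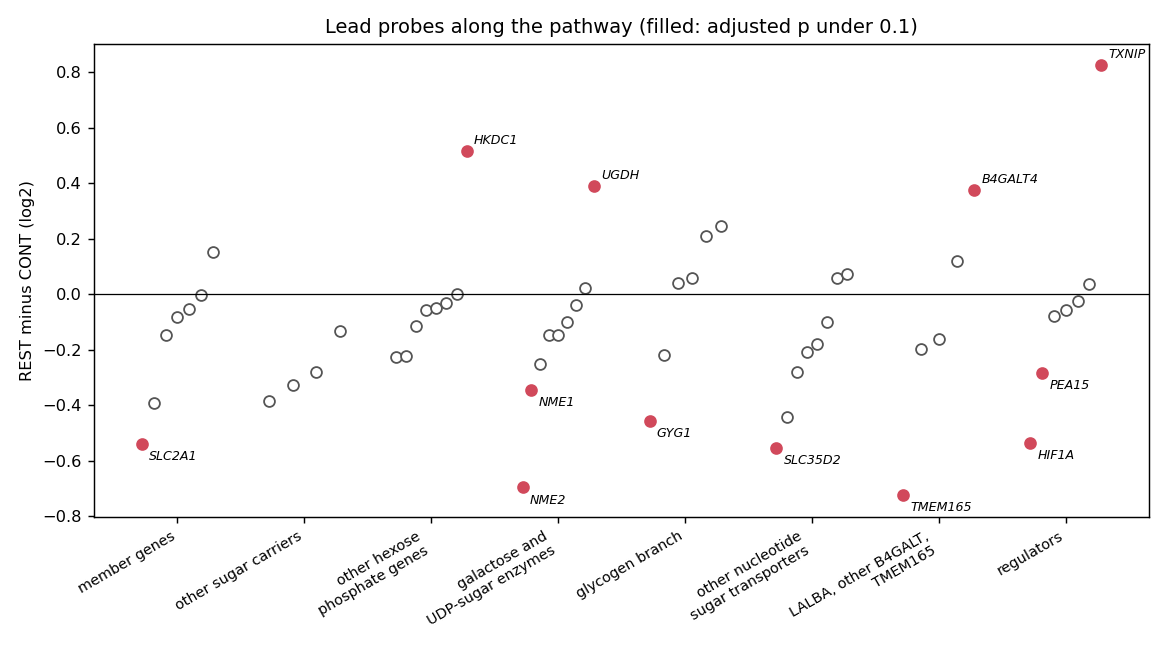
Change from CONT to REST (log2, paired limma estimate, 6 cows) of the lead probes of tested genes, with the genes of the route at the left and 7 lists of other genes around it. Filled, named points have an adjusted p under 0.1. SLC2A1 is the filled point among the route genes, and TXNIP, at 0.82, is the highest point.

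The genes whose levels ran most like SLC2A1 over the 12 arrays, among 7928 genes, were PCYT2 (Pearson's r 0.9502), INSIG1 (0.943), GSS (0.941), NEDD8 (0.939) and PGD (0.933). The arrays come in pairs from 6 cows and hold both periods, and all 5 genes were also lower in REST. Of the other route genes UGP2 came closest, with r 0.539, and SLC2A8 was farthest, with 0.107. Over the 6 within-cow changes the closest to SLC2A1 were KANK4, ECE2, HSPBP1, NDUFA6 and RBBP7 (r 0.984 to 0.994), none of them among the 5 above. B4GALT1 had an r of 0.703 with SLC2A1 over the 6 changes, UGP2 0.623 and PGM1 -0.827. These are descriptions over few points.

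A biopsy holds several cell types, and in bulk RNA fewer cells of a type cannot be told apart from less RNA per cell. The 5 tested markers of secretory epithelium were lower in REST, with CSN1S1 (-0.26, limma adjusted p = 0.0912) and CSN3 (-0.28, 0.0776) called. Their summed signal, in multiples of the 75th percentile, was 4229 to 5455 in CONT and 3414 to 4479 in REST and was lower in 6 of 6 cows. Without the pairing 0 of these 5 markers were called, and LALBA, 1 of them, changed by 0.02 after quantile normalization. Beside the marker calls stand 9.27% of lead probes called lower and 6.94% called higher over all genes. Of 6 luminal markers KRT7, KRT8 and KRT18 rose and the sum (233 to 326, then 257 to 341) was lower in 2 cows. Of 6 myoepithelial markers 3 had a lower and 3 a higher mean in REST (median -0.04). ACTA2 and CNN1 were called lower, and the sum (96.2 to 189, then 87.1 to 174) was lower in 5 cows. FABP4, the only adipocyte marker tested, fell, from 141 to 210 down to 98.0 to 145, in 6 cows. Of 5 endothelial markers VWF rose, and the sum (8.43 to 11.4, then 10.2 to 12.5) was lower in 0 cows. Of 5 leukocyte markers 2 had a lower and 3 a higher mean. CD3E was called higher, and the sum (7.89 to 10.5, then 8.60 to 11.6) was lower in 3 cows. Of 6 fibroblast markers 0 were called by limma (2 at an unadjusted p under 0.05), with a sum of 34.2 to 63.9 and then 26.4 to 73.5. Erythrocyte HBA, the only tested gene of its list, was not called (-0.33), and of 2 muscle genes CKM fell. HBB and the adipocyte markers LEP, PLIN1 and CIDEC were among the markers that missed the filter on dim probes. The part of such shifts in the values of the other route genes was not tested either.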

How the data were processed

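Total RNA of mammary biopsies was labelled with Cy3. The authors scanned the arrays and then processed the scanned images with Agilent Feature Extraction (version 11 per the labels), and the deposited files hold background-subtracted processed intensities on a linear scale. Values in the deposited series table were identical to these intensities (542640 of 542640 cells). Saturated spots among non-control probes numbered 0, and arrays give no counts, so that the number of arrays limits precision.

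Here log2 intensity minus the 75th percentile of the array was computed over non-control probes. Spots marked by the software as non-uniform or population outliers (1 to 13 per array) were left out, and repeat spots were averaged. Probes well above background on every array of at least 1 group were tested. Symbols came from RefSeq identifiers and a bovine gene table; 27131 of 43653 probes had 1 symbol. REST was compared with CONT in limma 3.58.1 (R 4.3.3) with the cow as a fixed block, two-sided, and p-values were Benjamini-Hochberg adjusted over all tested probes. The cow comes from the labels, and deviations from group means correlated at 0.36 to 0.57 between the arrays of a cow against -0.33 to 0.13 between cows. The study's methods name no pairing, and the unpaired fit is an alternative.

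The gene group, the lists around it and the alternatives were chosen with earlier results of these data known. All members are named. Other list genes are named when called with the lead probe, at most 4 of a list by absolute change, with LALBA in any case. The carriers of the list without calls were named after their values were seen. A few genes counted in the lists are left out of the text and plots. The array grid and the gene table use different assemblies, so positions are not given. Probe sequences were not analysed here. The pipeline was tested on simulated data. Figures were drawn with Python 3.11.15, pandas 2.3.3 and matplotlib 3.10.9.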

Additional observations from a re-analysis of the deposited data

Results flagged for a closer look

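Single values far from the rest of their group of 6 were found in 7 of 51 groups examined (the CONT values, the REST values and the changes of each of the 17 tested probes), where chance gives about 1 in 20, or 2.55. Of these, 6 were cow 1 on the B4GALT1 probes, which share a transcript and a cow and so are not separate events. The values were 5.97 in CONT and 5.88 in REST on A_73_P461151, 5.38 and 5.13 on A_73_P035196, and 2.95 and 2.78 on A_73_P107856. The remaining value was cow 6 in CONT on the SLC2A1 probe A_73_P346251, at -0.73. Neither of the other SLC2A1 probes set cow 6 apart by this measure.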

How the results depend on the processing

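The fall of SLC2A1 by its lead probe kept its direction and its call in the 19 alternatives across all probes. The deposited series table, among them, holds the same values as the main input, so its result was fixed in every count out of 19. The number of probes called over the whole array was 3104, and it was 388 with no filter on dim probes, 1898 with the slide as a block, 722 with an unpaired ordinary t-test (the methods name t-tests moderated with the false discovery rate correction, and no pairing), and 1045 to 3291 when a cow was left out (1045 without cow 2, 1205 without cow 4 and 1530 without cow 1). With no replicate block, that is without the pairing by cow, 836 probes were called, with 1 of the route's probes and 1 of its genes. The count of route probes (3) was 1 with no filter and with the ordinary t-test, 4 with normexp and with a trended and robust variance, and 2 to 5 when a cow was left out, 5 without cow 6. The count of genes with the lead probe (1) was 1 to 2, the latter without cow 6. The count with any probe (2) was 1 with no filter, the slide block and the ordinary t-test, 3 with a trended and robust variance, and 1 to 2 when a cow was left out, 1 without cow 1, 2, 3 or 4.

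Signs turned under some settings for 6 genes, none of them called under the setting that turned the sign. SLC2A8 changed by 0.0595 with quantile normalization, 0.0013 with the median shift, 0.163 with normexp, -0.0459 to 0.0395 when a cow was left out (0.0280, 0.0228 and 0.0395 without cows 1, 3 and 4), and 0.0042 by its other probe. HK1 changed by 0.0208 and PGM1 by 0.0613 with normexp, and PGM1 by 0.0014 without slide 3. SLC2A3 changed by -0.0581 and B4GALT1 by 0.0135 with another probe, and LALBA by 0.0193 with quantile normalization. Within single slides, where no test was made, lead probe signs also turned. Slide 3 gave 0.0506 for B4GALT1, -0.0165 for SLC2A3 and 0.123 for SLC2A8. Slide 2 gave 0.0107 for HK1, and slide 1 gave 0.0179 for PGM1 and 0.0369 for SLC2A8. The causes were not tested. Planned normexp on mean signals was run on median signals instead, since the files used hold no mean signal, and this and the fit without slide 3 were added after the data were seen.

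Limits are the 6 cows, the dim slide 3 and probes near background, which leave SLC35A2 and most SLC2A3 probes without a test.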
